A study of Homo sapiens with 12 samples.

Results

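ATF4 and 7 genes of its stress-response circle were followed in K562 cells, a human line from chronic myelogenous leukaemia. The members were chosen by name, with earlier results of these data known. They are the transcription factor genes ATF4, ATF3, ATF5, CEBPB, CEBPG, DDIT3 and JDP2 and the pseudokinase gene TRIB3. All 8 were found by Ensembl identifier among the 17786 genes of the count table, and all 8 passed the filter on low counts that left 13598 genes for testing. Cells were given 2 mM alpha-ketobutyrate (AKB) for 24 h, given 2 mM pyruvate for 24 h, or left untreated, with 4 poly(A) RNA libraries in each group. All cells were grown in RPMI-1640 medium with fetal bovine serum, glutamine, penicillin and streptomycin. Nothing in the labels states that a group's 4 libraries were separate cultures, and p-values therefore reflect the spread between these libraries alone, which may be technical. The untreated libraries are the same 4 in both comparisons with a treatment.

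ATF4 is the central transcription factor of the integrated stress response. Kinases that sense amino acid shortage, unfolded proteins, haem deficiency or viral RNA phosphorylate the initiation factor eIF2, which lowers general translation but raises translation of the ATF4 mRNA through its upstream open reading frames. ATF4 protein pairs with other basic leucine zipper (bZIP) proteins, among them members of the C/EBP family, and binds composite C/EBP-ATF elements in genes of amino acid supply and of the response itself. Only mRNA was measured here, so the amount of ATF4 protein is not known from these data.

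The 12 libraries held 15353200 to 21301073 counts each, and the question named in the series title was the transcriptional response of K562 cells to both electron acceptors. The erythroid transcription factor gene GATA1 (121 to 248 CPM, counts scaled to library size) and the fetal globin gene HBG2 (3831 to 5920 CPM) were expressed in every library, while the T cell marker CD3E stayed at 0 to 0.122 CPM and the liver marker ALB at 0 to 0.276 CPM. The epithelial markers EPCAM (80.9 to 104 CPM) and KRT8 (154 to 320 CPM) were not at 0. Pyruvate replicates 3 and 4 stood apart by the GC content of transcripts: relative to the 12-library mean, log2 CPM increased with GC by 0.328 and 0.348 per 10 points in them, and by −0.155 to 0.0179 in the other 10. Pyruvate fold changes of the 8 genes and of the list genes named are therefore also given without these libraries, with a GC-content offset, or both. In bulk RNA, fewer cells that express a gene and less of its RNA per cell cannot be told apart.

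The core of the C/EBP-ATF response element, searched as TGATGNAA on both strands, was found near the start of 3 of the 8 genes. Promoters were taken as windows of 300 bases, from 250 before to 50 after each transcript start, from RefSeq on GRCh38.p14. The core lay in 3 of 19 windows of the 8 genes (15.8%) and in 1270 of 35116 windows of all genes (3.62%). The stretches outside exons that hold it are shown here because they carry the element through which ATF4 and C/EBP proteins are known to act, with the matched letters in capitals. The ATF3 stretch lies upstream of the gene at chr1:212565157-212565333, the JDP2 stretch in an intron of JDP2 at chr14:75427850-75428021 and the CEBPG stretch in an intron of CEBPG at chr19:33373896-33374112, all on the plus strand.
ATF3: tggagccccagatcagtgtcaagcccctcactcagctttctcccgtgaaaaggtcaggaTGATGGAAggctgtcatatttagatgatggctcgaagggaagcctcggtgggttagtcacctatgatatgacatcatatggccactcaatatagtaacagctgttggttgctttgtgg
JDP2: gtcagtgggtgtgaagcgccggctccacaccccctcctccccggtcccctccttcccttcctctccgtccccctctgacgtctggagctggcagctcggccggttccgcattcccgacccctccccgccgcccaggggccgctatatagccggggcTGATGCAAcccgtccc
CEBPG: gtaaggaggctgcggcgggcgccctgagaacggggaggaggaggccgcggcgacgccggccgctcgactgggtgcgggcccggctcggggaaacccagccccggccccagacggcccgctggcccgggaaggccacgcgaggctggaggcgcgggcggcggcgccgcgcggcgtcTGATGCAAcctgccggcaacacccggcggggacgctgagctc

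Among 29 amino acid response target genes with a RefSeq window, 11 held the core (11 of 40 windows, 27.5%). A pair of them is shown, since these genes are described with the targets further on: asparagine synthetase, ASNS (chr7:97872458-97872487, minus strand), and the amino acid carrier chain SLC3A2 (chr11:62881719-62881748, plus strand), each with its match in capitals within an untranslated stretch of an exon of that gene in GENCODE 29.
ASNS: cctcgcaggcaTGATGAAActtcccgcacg
SLC3A2: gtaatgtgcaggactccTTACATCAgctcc
The full cAMP response element, TGACGTCA, was in 0 of the 19 windows of the 8 genes and in 1.85% of all windows. A match is a run of letters and not a measured binding site, and the absence of one says only that these letters are not in the window.

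Per kilobase of the longest GENCODE 29 transcript, ATF4 stood at the top of the 8 genes in every group, with means of 119 CPM per kb in AKB, 128 CPM per kb in pyruvate and 169 CPM per kb in untreated libraries. TRIB3 came next, at 35.8, 33.8 and 49.1 CPM per kb in the same order of groups. In untreated libraries ATF5 (25.3 ± 3.74 CPM per kb), DDIT3 (22.4 ± 0.747) and CEBPG (20.9 ± 0.474) followed (mean ± SD, n = 4), and the ATF5 libraries overlapped those of DDIT3 and CEBPG. CEBPB stood at 15.7 ± 2.83, ATF3 at 7.77 and JDP2 at 0.334 CPM per kb in untreated libraries. In AKB libraries ATF5 and DDIT3 had the same mean level of 17.7 CPM per kb, with CEBPG at 14.8 ± 0.766 and CEBPB at 13 ± 3.02. In pyruvate libraries the levels of ATF5 (27.3 ± 7.55), DDIT3 (20.2 ± 2.16) and CEBPB (18.6 ± 8.27) overlapped within their spread.

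With AKB, 4 of the 8 genes were below their untreated level and 0 above it, by edgeR's quasi-likelihood test with Benjamini-Hochberg adjustment over all genes tested (adjusted p below 0.05). Over all genes tested, 0.603% were called lower and 1.37% higher in that comparison. The same 4 genes, ATF4, ATF3, CEBPG and TRIB3, were lower with pyruvate and 0 were higher, where 0.927% of all genes were called lower and 1.02% higher. At an unadjusted p below 0.05 also 0 of the 8 were higher in both comparisons. DESeq2's Wald test gave 5 lower and 0 higher with AKB, where it called 1.4% of all genes lower and 2.4% higher, and 4 lower and 0 higher with pyruvate, where it called 6.38% lower and 9.38% higher. The median log2 fold change of the 8 genes was −0.48 with AKB and −0.30 with pyruvate, against 0.006 and −0.008 over all genes tested.

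ATF4 (ENSG00000128272, GRCh38 chromosome 22, 39519695 to 39522685, plus strand) stood at 240, 247, 238 and 239 CPM in the AKB libraries, at 230, 249, 282 and 276 CPM in the pyruvate libraries and at 356, 332, 333 and 344 CPM in the untreated libraries. Every treated library was below every untreated one, as it was for 8.41% of all genes tested with AKB and 6% with pyruvate, and the AKB libraries lay closest together. ATF4 was 1.41-fold lower with AKB (241 ± 4.03 against 341 ± 11.3 CPM, mean ± SD, n = 4, log2 −0.50, 95% interval −0.64 to −0.36, adjusted p = 0.0023). With pyruvate it was 1.32-fold lower (259 ± 24.2 against 341 ± 11.3 CPM, log2 −0.40, 95% interval −0.54 to −0.25, adjusted p = 0.0174). The pyruvate call depended on the libraries in the fit: adjusted p was 0.113 in the 8 libraries of that comparison alone, and 0.0871, 0.0543 and 0.0583 without untreated replicate 1, 2 or 3. Without pyruvate replicates 3 and 4 the log2 fold change was −0.51 (adjusted p = 0.000392), and with the GC-content offset it was −0.56 both with AKB (adjusted p = 5.25e-05) and with pyruvate (adjusted p = 6.35e-05). Reads from processed copies of ATF4 elsewhere in the genome, such as ATF4P3, may be shared with it.

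ATF3 (ENSG00000162772, chromosome 1, 212565334 to 212620777, plus strand), an ATF4-induced bZIP factor that as a homodimer represses transcription, had the largest fall of the 8. It stood at 8.42, 9.02, 8.26 and 8.09 CPM with AKB, at 9.24, 8.54, 10.1 and 8.77 CPM with pyruvate and at 16.1, 17.1, 15 and 17.1 CPM in untreated libraries. Its highest treated library was well below its lowest untreated library. The fold was 1.93 lower with AKB (8.45 ± 0.404 against 16.3 ± 0.995 CPM, log2 −0.95, 95% interval −1.15 to −0.75, adjusted p = 0.000914) and 1.78 lower with pyruvate (9.16 ± 0.69 against 16.3 ± 0.995 CPM, log2 −0.83, 95% interval −1.03 to −0.63, adjusted p = 0.00114). Its level is low, but it was called in both comparisons with the GC-content offset (log2 −0.94 with AKB and −0.78 with pyruvate) and without pyruvate replicates 3 and 4 (−0.95 and −0.88).

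CEBPG (ENSG00000153879, chromosome 19, 33373330 to 33382686, plus strand) encodes a C/EBP protein without a strong activation domain of its own that pairs with ATF4. Its level was 64.6, 59.7, 62.1 and 57.3 CPM with AKB, 62.1, 63.6, 55.5 and 57.6 CPM with pyruvate and 85.9, 87, 87.6 and 83.2 CPM in untreated libraries. No treated library reached the untreated range. The fall was 1.41-fold with AKB (60.9 ± 3.15 against 85.9 ± 1.95 CPM, log2 −0.50, 95% interval −0.63 to −0.36, adjusted p = 0.00192) and 1.44-fold with pyruvate (59.7 ± 3.77 against 85.9 ± 1.95 CPM, log2 −0.53, 95% interval −0.66 to −0.39, adjusted p = 0.00212). With pyruvate the log2 value was −0.42 (adjusted p = 0.000164) with the GC-content offset, and −0.45 in the fit without pyruvate replicates 3 and 4 (adjusted p = 0.00312).

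TRIB3 (ENSG00000101255, chromosome 20, 362835 to 397559, plus strand) encodes a pseudokinase that ATF4 induces and that in turn binds ATF4 and dampens its activity. It was measured at 88.5, 91.5, 90.4 and 86.9 CPM with AKB, at 78.9, 74.9, 91.1 and 93.2 CPM with pyruvate and at 119, 125, 121 and 126 CPM in untreated libraries. Again no treated library overlapped the untreated ones, and pyruvate replicates 1 and 2 were the lowest of all. TRIB3 was 1.37-fold lower with AKB (89.3 ± 2.01 against 123 ± 3.27 CPM, log2 −0.46, 95% interval −0.62 to −0.30, adjusted p = 0.00806) and 1.45-fold lower with pyruvate (84.5 ± 8.97 against 123 ± 3.27 CPM, log2 −0.54, 95% interval −0.70 to −0.38, adjusted p = 0.00447). The pyruvate call was lost in the 8 libraries of that comparison alone (adjusted p = 0.069), and it was kept without pyruvate replicates 3 and 4 (log2 −0.67, adjusted p = 4.45e-05).

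**Figure D1:**
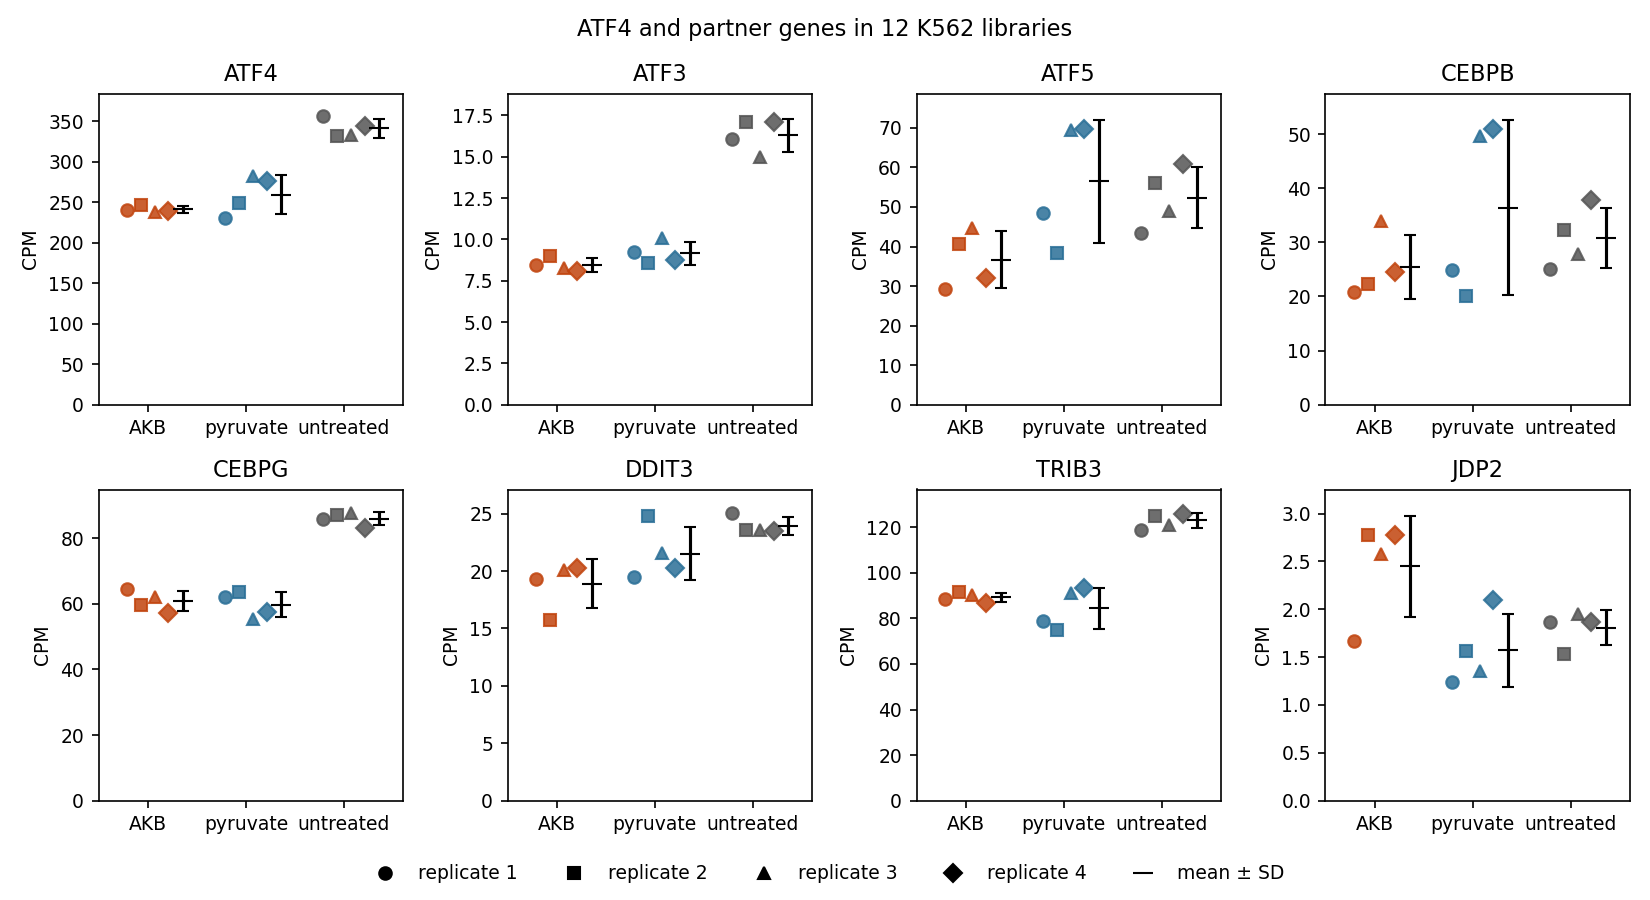
Levels of the 8 genes in CPM (vertical axes, starting at 0) in each AKB, pyruvate and untreated library, with 1 marker shape per replicate number and the mean ± SD of 4 libraries beside them. For ATF4, ATF3, CEBPG and TRIB3 every treated library lies below every untreated library, while ATF5 and CEBPB are high in pyruvate replicates 3 and 4.

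DDIT3 (ENSG00000175197, chromosome 12, 57516588 to 57521737, minus strand) encodes CHOP, a C/EBP relative that is induced by ATF4 and favours cell death under lasting stress. It stood at 19.3, 15.7, 20.1 and 20.3 CPM with AKB, at 19.5, 24.8, 21.6 and 20.3 CPM with pyruvate and at 25.1, 23.6, 23.6 and 23.5 CPM in untreated libraries. The AKB libraries were all below the untreated ones, whereas 1 pyruvate library lay within the untreated range. Neither difference passed the test in the fit to 12 libraries (AKB 18.9 ± 2.16 against untreated 23.9 ± 0.797 CPM, log2 −0.34, 95% interval −0.56 to −0.13, adjusted p = 0.123, and pyruvate 21.5 ± 2.31 CPM, log2 −0.15, 95% interval −0.37 to 0.06, adjusted p = 0.302). The AKB difference passed with DESeq2 (adjusted p = 0.0374), with the GC-content offset (adjusted p = 0.0321), without pyruvate replicates 3 and 4 (adjusted p = 0.0493) and in the 8 libraries of that comparison alone (adjusted p = 0.0334). The pyruvate value was −0.17 with the offset and −0.11 without pyruvate replicates 3 and 4, with no call in either. DDIT3 shares 355 exonic bases with the methionyl-tRNA synthetase gene MARS1 on the other strand. The library kit is not described as keeping the strand, so it is not known whether reads in that stretch could be told apart by strand. MARS1 averaged 259 ± 10.9 CPM with AKB and 260 ± 17.7 CPM with pyruvate, against 356 ± 17.4 CPM in untreated libraries. It was called lower in both comparisons (adjusted p = 0.0029 and 0.00494). The part of shared reads in the DDIT3 values was not tested.

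ATF5 (ENSG00000169136, chromosome 19, 49928702 to 49933935, plus strand) encodes a bZIP factor linked to the mitochondrial unfolded protein response, a role also known for its Caenorhabditis elegans counterpart. Its level was 29.3, 40.7, 44.6 and 32.1 CPM with AKB, 48.4, 38.4, 69.4 and 69.6 CPM with pyruvate and 43.3, 56.1, 49 and 60.9 CPM in untreated libraries. AKB replicate 3 lay just above the lowest untreated library, and pyruvate replicates 3 and 4 lay above all others. In the fit to 12 libraries neither comparison was called (AKB 36.7 ± 7.2 against untreated 52.3 ± 7.74 CPM, log2 −0.51, 95% interval −0.94 to −0.08, adjusted p = 0.278, and pyruvate 56.5 ± 15.6 CPM, log2 0.11, 95% interval −0.31 to 0.54, adjusted p = 0.705). With the GC-content offset the spread within groups was smaller and ATF5 was called lower with AKB (36.9 ± 5.83 against 55.8 ± 5.37 GC-adjusted CPM, log2 −0.59, adjusted p = 0.00628). The pyruvate estimate turned to −0.14 with the offset and to −0.27 without pyruvate replicates 3 and 4, with no call in either. ATF5 shares 626 exonic bases with NUP62 on the other strand, with the same limit on assigning reads.

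CEBPB (ENSG00000172216, chromosome 20, 50190734 to 50192689, plus strand) encodes C/EBP-beta, a partner of ATF4 at its target genes and a regulator of myeloid and fat cell differentiation. It stood at 20.8, 22.3, 34 and 24.6 CPM with AKB, at 24.9, 20.1, 49.6 and 51 CPM with pyruvate and at 25.1, 32.3, 27.9 and 37.8 CPM in untreated libraries. The 3 groups overlapped, and pyruvate replicates 3 and 4 stood above every other library. No difference was called in the fit to 12 libraries (AKB 25.4 ± 5.9 against untreated 30.8 ± 5.54 CPM, log2 −0.27, 95% interval −0.88 to 0.34, adjusted p = 0.757, and pyruvate 36.4 ± 16.2 CPM, log2 0.25, 95% interval −0.36 to 0.85, adjusted p = 0.55). The AKB interval includes a fall as large as that of ATF4, so a fall of that size was not excluded in this fit. With the GC-content offset the log2 fold changes were −0.40 with AKB (adjusted p = 0.0544) and −0.18 with pyruvate (adjusted p = 0.327). The CEBPB value with pyruvate was −0.45 without pyruvate replicates 3 and 4 (adjusted p = 0.358). CEBPB shares 231 exonic bases with its antisense gene CEBPB-AS1.

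JDP2 (ENSG00000140044, chromosome 14, 75427716 to 75474111, plus strand), whose product represses AP-1 and C/EBP-ATF element activity, was scarcely expressed. It was at 1.67, 2.78, 2.58 and 2.78 CPM with AKB, at 1.24, 1.56, 1.36 and 2.1 CPM with pyruvate and at 1.87, 1.53, 1.95 and 1.87 CPM in untreated libraries. In 3 AKB libraries it was above all others, and the fourth was within the untreated range. The estimate was above 0 with AKB (2.45 ± 0.529 against 1.81 ± 0.188 CPM, log2 0.44, 95% interval −0.04 to 0.92, adjusted p = 0.434) and below 0 with pyruvate (1.57 ± 0.378 against 1.81 ± 0.188 CPM, log2 −0.20, 95% interval −0.69 to 0.29, adjusted p = 0.546), with no call in either. The pyruvate estimate was −0.36 without pyruvate replicates 3 and 4 and −0.26 with the GC-content offset, again with no call.

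**Figure D2:**
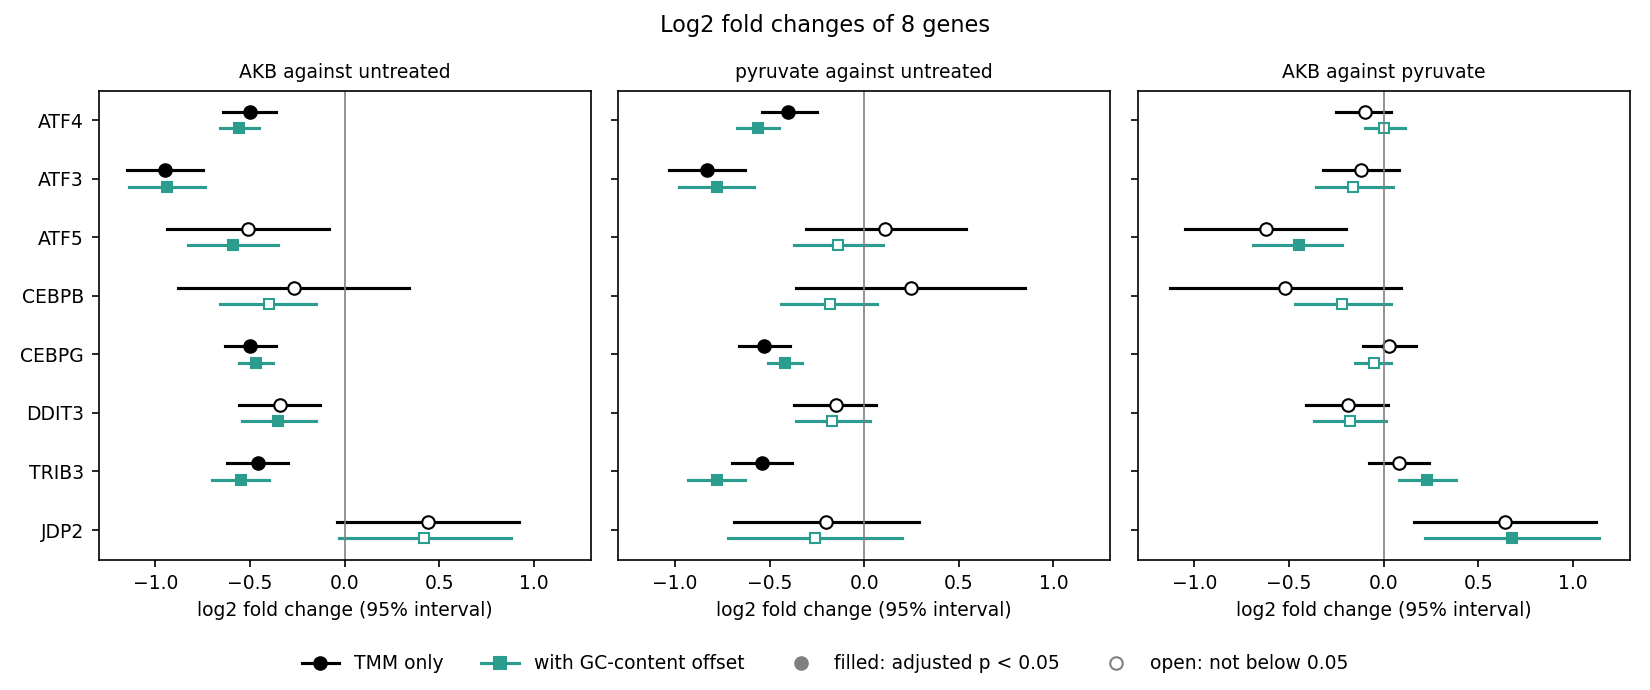
Log2 fold changes of the 8 genes with 95% intervals (horizontal axes) in 3 comparisons, from the fit with TMM scaling alone (circles) and with the GC-content offset (squares), filled where adjusted p was below 0.05. ATF4, ATF3, CEBPG and TRIB3 are filled and below 0 in both comparisons with untreated cells in either fit. With the offset ATF5 and DDIT3 become filled for AKB against untreated, and TRIB3, ATF5 and JDP2 for AKB against pyruvate.

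AKB, a 2-oxo acid, has 1 methylene group more than pyruvate, and both were given at the same dose and for the same time, so they can be compared directly. Of the 8 genes, 0 were called higher and 0 lower with AKB than with pyruvate, where 1.94% of all genes were called higher and 1.19% lower. An unadjusted p below 0.05 was reached by JDP2, which was higher, and ATF5, which was lower, and DESeq2 called ATF5 lower (log2 −0.64, adjusted p = 0.0193) and 0 higher, where it called 7.48% of all genes lower and 5.34% higher. The differences of the 4 genes that fell with both compounds had intervals of −0.25 to 0.04 for ATF4 (log2 −0.10), −0.32 to 0.08 for ATF3 (−0.12), −0.11 to 0.17 for CEBPG (0.03) and −0.08 to 0.24 for TRIB3 (0.08). The libraries of both treatments overlapped for each of the 8 genes, where 4.54% of all genes were lower and 7.08% higher with AKB without overlap.

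For 3 of the 8 genes the GC-content offset gave a call between the compounds. TRIB3 was higher with AKB than with pyruvate (log2 0.23, 95% interval 0.08 to 0.38, adjusted p = 0.0421), as it also was without pyruvate replicates 3 and 4 (0.21, adjusted p = 0.0298). ATF5 was lower with AKB (log2 −0.45, 95% interval −0.69 to −0.22, adjusted p = 0.0176), but without pyruvate replicates 3 and 4 its difference was −0.24 (adjusted p = 0.471). JDP2 was higher with AKB (log2 0.68, 95% interval 0.22 to 1.14, adjusted p = 0.0478), and missed the threshold without those libraries (0.80, adjusted p = 0.115). With the offset 7.16% of all genes were called higher with AKB than with pyruvate and 7.41% lower. Without pyruvate replicates 3 and 4, TRIB3 was the 1 gene of the 8 called, where 2.52% of all genes were higher and 1.84% lower. The ATF4 difference with the offset was 0.00, with an interval of −0.10 to 0.11.

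With the GC-content offset 6 of the 8 genes were lower with AKB than in untreated cells, the 4 above with DDIT3 and ATF5, where 3.82% of all genes were called lower. The count with pyruvate stayed at 4, where 4.09% of all genes were called lower. In both comparisons 0 of the 8 were higher with the offset, where 4.62% of all genes were higher with AKB and 5.4% with pyruvate. Without pyruvate replicates 3 and 4 the counts lower were 5 with AKB (4.31% of all genes lower) and 4 with pyruvate (0.56% of all genes lower), and 0 were higher in either (4.86% and 0.151% of all genes higher).

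CEBPB and ATF5 differed most between pyruvate replicates 3 and 4 and replicates 1 and 2. CEBPB, with 66.2% GC, averaged 50.3 CPM in replicates 3 and 4 and 22.5 CPM in replicates 1 and 2 (log2 1.16), and ATF5, with 60% GC, averaged 69.5 and 43.4 CPM (log2 0.68). JDP2 (51.5% GC, log2 0.30), TRIB3 (60.9% GC, log2 0.26), ATF4 (56.7% GC, log2 0.22) and ATF3 (46.7% GC, log2 0.09) differed less, so the order did not follow GC content throughout. CEBPG, with 43.9% GC (log2 −0.15), and DDIT3, with 49.7% GC (log2 −0.08), went the other way. After GC adjustment the log2 ratio was 0.37 for CEBPB, 0.20 for ATF5, −0.27 for TRIB3 and −0.12 for ATF4. It was 0.20 for ATF3, 0.21 for JDP2, 0.08 for CEBPG and −0.09 for DDIT3. The part of transcript GC content in these differences was not tested for single genes.

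**Figure D3:**
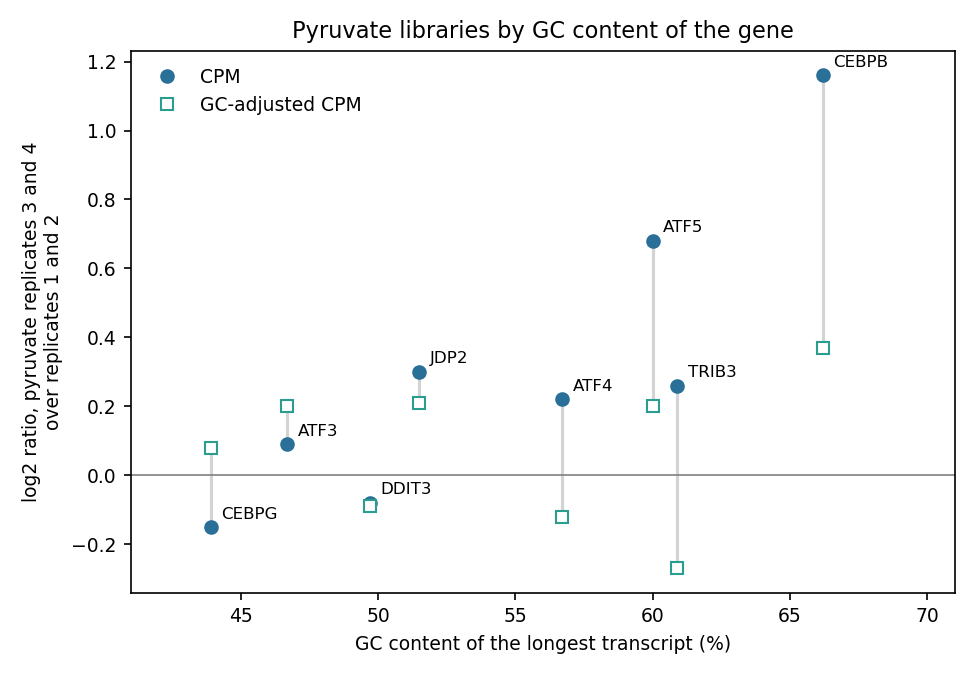
Log2 ratio of pyruvate replicates 3 and 4 over replicates 1 and 2 (vertical axis) against the GC content of the longest transcript in percent (horizontal axis) for the 8 genes, from CPM (circles) and GC-adjusted CPM (squares, joined by a line). CEBPB at 66.2% GC has the largest ratio, 1.16, and 0.37 after adjustment.

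Expressed as a share of the ATF4 CPM of the same library, which divides out what moved both genes alike, the partners differed. ATF3 averaged 3.5% of ATF4 with AKB (3.38 to 3.65%), 3.55% with pyruvate (3.18 to 4.01%) and 4.79% in untreated libraries (4.51 to 5.16%), so every treated library was below every untreated one and ATF3 fell further than ATF4. CEBPG averaged 25.3%, 23.3% and 25.2% in AKB, pyruvate and untreated libraries, with overlapping ranges. TRIB3 averaged 37% with AKB (36.4 to 37.9%), 32.6% with pyruvate (30.1 to 34.3%) and 36% in untreated libraries (33.4 to 37.7%), so the pyruvate libraries lay below all AKB libraries. DDIT3 averaged 7.83% with AKB, 8.36% with pyruvate (7.37 to 9.95%) and 7.02% in untreated libraries (6.83 to 7.1%), and each pyruvate library was above the untreated range. These shares are on CPM, not per length and not GC-adjusted, and are given as a description with no test. The pyruvate shares include replicates 3 and 4, in which ATF4 and CEBPG did not move alike. Over replicates 1 and 2, ATF4 was higher there (log2 0.22) and CEBPG lower (log2 −0.15), and the CEBPG share ranged from 19.7 to 27% with pyruvate. How many of all genes have shares without overlap was not counted.

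**Figure D4:**
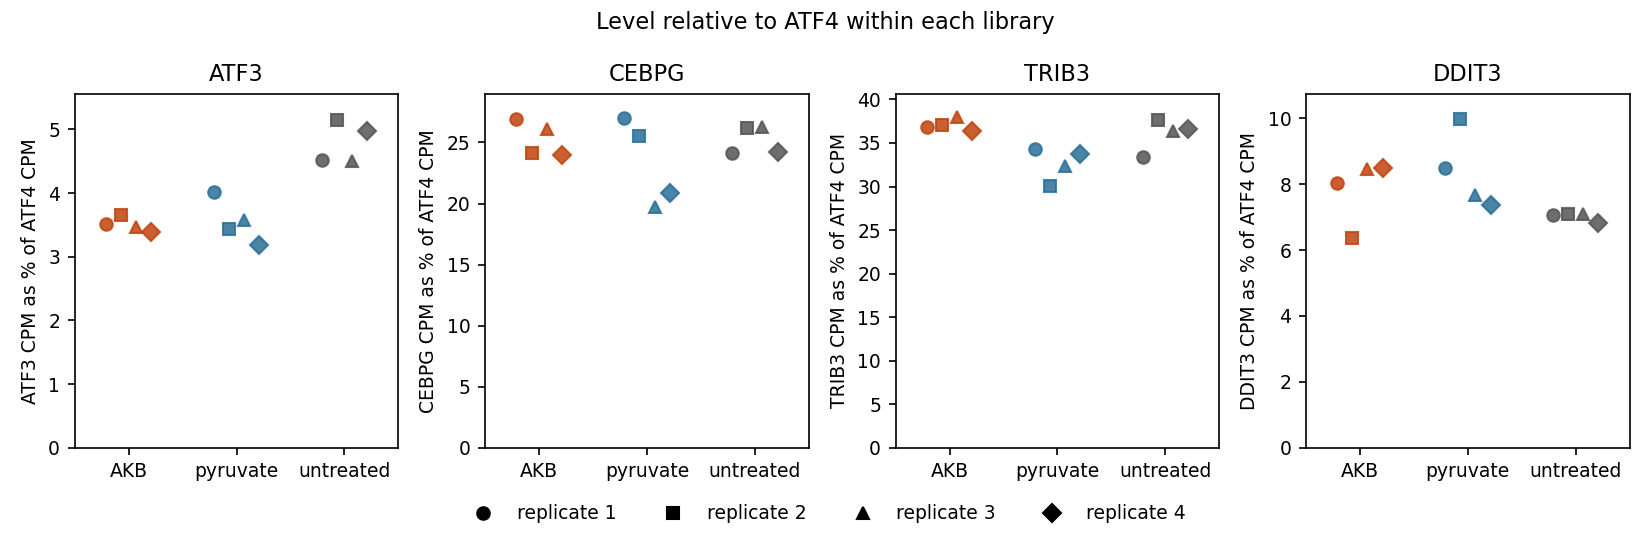
ATF3, CEBPG, TRIB3 and DDIT3 as a percentage of the ATF4 CPM of the same library, without GC adjustment (vertical axes, starting at 0), in AKB, pyruvate and untreated libraries. ATF3 lies at 3.38 to 3.65% with AKB and 3.18 to 4.01% with pyruvate, below 4.51 to 5.16% in untreated libraries, while CEBPG stays near 25.3, 23.3 and 25.2% on average.

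Of the 38 other bZIP genes tested, edgeR called 1 lower and 0 higher in each comparison with untreated cells in the fit to 12 libraries. Of all genes tested, 0.603% were lower with AKB and 0.927% with pyruvate. The median log2 fold change of the 38 was 0.01 with AKB and 0.03 with pyruvate. At an unadjusted p below 0.05, 4 were lower and 3 higher with AKB, and 7 and 5 with pyruvate. DESeq2 called 2 lower and 1 higher with AKB, where it called 1.4% of all genes lower and 2.4% higher. With pyruvate it called 3 lower and 0 higher, against 6.38% and 9.38% of all genes. The gene called by edgeR in the fit to 12 libraries was XBP1, the bZIP factor of the unfolded protein response. It averaged 89.4 ± 2.09 CPM with AKB and 82.4 ± 5.09 CPM with pyruvate, against 113 ± 3.57 CPM in untreated libraries (adjusted p = 0.0142 with AKB and 0.00363 with pyruvate). JUN, an AP-1 subunit, had a log2 fold change of −0.60 with AKB (15.6 ± 1.37 against 23.7 ± 3.98 CPM, adjusted p = 0.0767) and −0.35 with pyruvate (18.5 ± 3.8 CPM, adjusted p = 0.156). BACH1, a haem-regulated repressor, had log2 fold changes of −0.13 and −0.44 (adjusted p = 0.708 and 0.0656). With the GC-content offset 4 other bZIP genes were lower and 1 higher with AKB, and 4 and 0 with pyruvate. Of all genes, 3.82% and 4.09% were lower with the offset. JUN passed the test with the offset with AKB (log2 −0.65, adjusted p = 0.00243) and with pyruvate (−0.53, adjusted p = 0.0107), and BACH1 with pyruvate (−0.22, adjusted p = 0.0171). In the fit without pyruvate replicates 3 and 4, 5 were lower and 1 higher with AKB, and 1 and 0 with pyruvate. There 4.31% and 0.56% of all genes were lower. Without pyruvate replicates 3 and 4 the pyruvate values of JUN (−0.62, adjusted p = 0.0903) and BACH1 (−0.23, adjusted p = 0.24) missed the threshold and XBP1 kept its call (−0.37, adjusted p = 0.00325). ATF3 had the lowest estimate of all 7 bZIP members and 38 others in both comparisons.

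**Figure D5:**
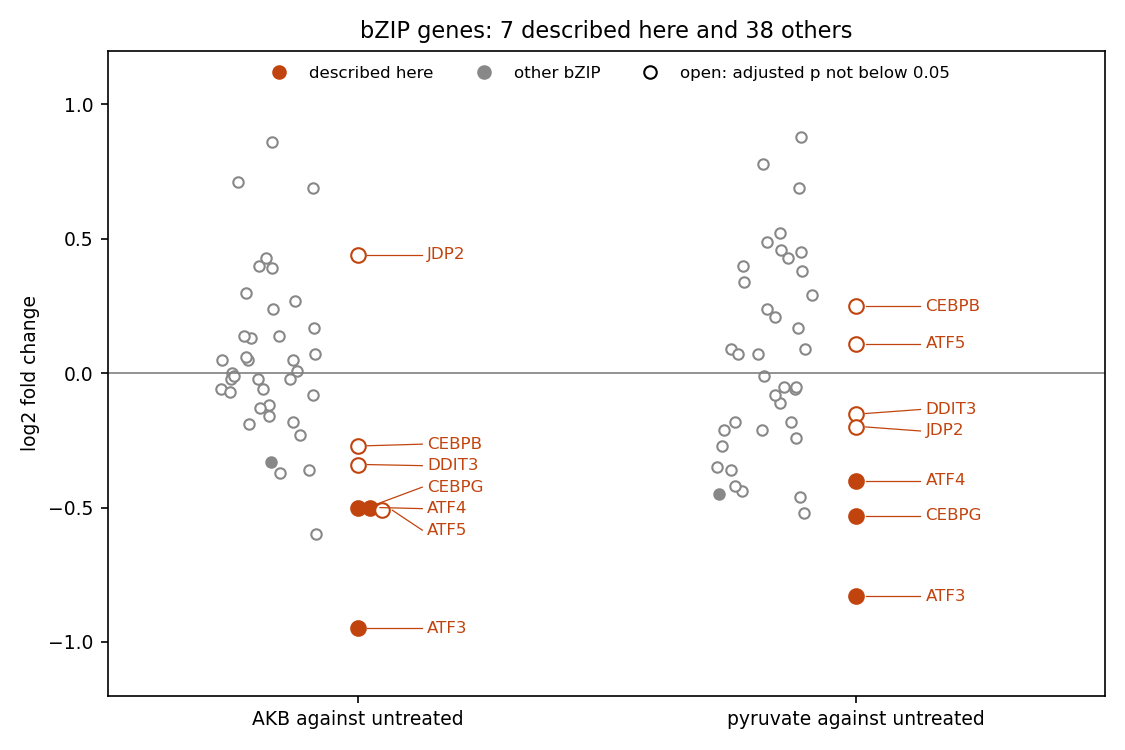
Log2 fold changes (vertical axis) of the 7 bZIP genes described here (orange, named) and the other 38 tested (grey) with AKB and with pyruvate against untreated cells, filled where adjusted p was below 0.05. ATF3 lies lowest in both, at −0.95 and −0.83, and XBP1 is the 1 grey gene that was called, at −0.33 and −0.45.

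Of 36 amino acid response targets tested, genes that ATF4 is known to induce or that rise with it, 19 were lower and 0 higher with AKB, and 19 were lower and 0 higher with pyruvate. Of all genes tested, 0.603% were lower with AKB and 0.927% with pyruvate. At an unadjusted p below 0.05, 0 were higher with AKB and 1 with pyruvate, and DESeq2 called 0 higher in either. The median log2 fold changes were −0.42 with AKB and −0.46 with pyruvate. With the GC-content offset 31 and 34 were lower, where 3.82% and 4.09% of all genes were lower. The list was drawn up with earlier results of these data known, so its direction is not independent evidence.

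PSAT1, ALDH1L2 and ASNS were named for their small adjusted p with pyruvate, where CTH tied with ALDH1L2 and ASNS. ALDH1L2, a mitochondrial folate enzyme, averaged 23.6 ± 1.31 CPM with AKB and 16.4 ± 2.11 CPM with pyruvate, against 36.4 ± 2.37 CPM in untreated libraries, a fold of 1.54 lower with AKB (adjusted p = 0.00562) and 2.23 lower with pyruvate (adjusted p = 9.58e-05). Without pyruvate replicates 3 and 4 its pyruvate log2 value was −1.02 (adjusted p = 0.000295). In the fit to 12 libraries 2 of the 36 were called between the compounds, both higher with AKB than with pyruvate: ALDH1L2 (log2 0.53, adjusted p = 0.0159) and the cystathionine gamma-lyase gene CTH (log2 0.34, adjusted p = 0.0461). When pyruvate replicates 3 and 4 were left out, ALDH1L2 kept its call (0.40, adjusted p = 0.0348) and CTH did not (0.30, adjusted p = 0.094). Between the compounds the counts were 8 higher and 2 lower with the GC-content offset, 4 and 0 with DESeq2, and 3 and 0 without those libraries. Of all genes, 1.94% were higher and 1.19% lower with AKB than with pyruvate in the fit to 12 libraries. The shares were 7.16% and 7.41% with the offset, 5.34% and 7.48% with DESeq2, and 2.52% and 1.84% without those libraries. The log2 fold changes of PSAT1, of serine synthesis, were −0.99 and −1.22, and those of ASNS, whose element is printed above, −0.90 and −1.19, beside −0.50 and −0.40 for ATF4, a difference that was not tested. The pyruvate values without pyruvate replicates 3 and 4 were −1.08 for PSAT1 and −1.01 for ASNS, both called.

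The targets of CHOP gave 1 call by edgeR, lower, in each comparison with untreated cells, where 0.603% of all genes were called lower with AKB and 0.927% with pyruvate. With pyruvate, 2 were higher and 2 lower at unadjusted p below 0.05, a level at which the share of all genes was not counted. DESeq2 called 1 higher and 1 lower with pyruvate, where it called 9.38% of all genes higher and 6.38% lower. Of 7 tested, PMAIP1, which encodes the BH3-only protein NOXA, was lower with AKB and with pyruvate (19.6 ± 1.59 and 17.1 ± 3.03 CPM against 31.5 ± 2.76 CPM in untreated libraries, adjusted p = 0.0142 with AKB and 0.00489 with pyruvate, and 0.0099 with pyruvate without pyruvate replicates 3 and 4). The list medians were 0.00 and −0.07. PPP1R15A, the stress-induced subunit of an eIF2 phosphatase, had log2 fold changes of 0.11 with AKB (adjusted p = 0.9) and 0.69 with pyruvate (51.3 ± 22.1 against 32 ± 2.1 CPM, adjusted p = 0.106), and without pyruvate replicates 3 and 4 the pyruvate value was 0.02. GADD45A, a growth arrest gene, had values of −0.07 and 0.28 (adjusted p = 0.875 and 0.136), and 0.02 with pyruvate without those libraries.

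Of 7 mitochondrial chaperone and protease genes of the ATF5 list, edgeR called 0 with AKB (median log2 −0.13, with 3 lower at an unadjusted p below 0.05). DESeq2 called 2 lower with AKB, where it called 1.4% of all genes lower. With pyruvate edgeR called 1 higher (median 0.06), where 1.02% of all genes were called higher. This gene was HSPE1, the mitochondrial co-chaperonin (155 ± 21.5 against 109 ± 3.37 CPM, log2 0.51, adjusted p = 0.0206), which missed the threshold without pyruvate replicates 3 and 4 (0.34, adjusted p = 0.0515). With AKB it averaged 108 ± 6.19 CPM, lower than with pyruvate (log2 −0.52, adjusted p = 0.014). The mitochondrial chaperone HSPA9 had log2 fold changes of −0.18 and −0.14 (adjusted p = 0.139 and 0.13), and the protease subunit CLPP 0.26 and 0.80 (adjusted p = 0.708 and 0.0751). The pyruvate value of HSPA9 was −0.06 without pyruvate replicates 3 and 4 and was not called. With AKB it passed in the fit without those libraries (−0.18, adjusted p = 0.00941) and in that with the offset (−0.15, adjusted p = 0.0187). CLPP passed with pyruvate with the offset (0.44, adjusted p = 0.00986) but not without those libraries (0.25, adjusted p = 0.508).

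Genes of the pathway upstream of ATF4 had no call by edgeR in the fit to 12 libraries, but some had one in other fits. Of 16 genes for eIF2 kinases, eIF2 and eIF2B subunits and their regulators, edgeR called 0 with AKB and 0 with pyruvate. At an unadjusted p below 0.05, 2 were lower with AKB and 3 with pyruvate, with median log2 fold changes of −0.06 and −0.09. DESeq2 called 0 and 2 lower, where it called 1.4% and 6.38% of all genes lower. With the GC-content offset 2 were lower with AKB and 1 with pyruvate, where 3.82% and 4.09% of all genes were lower. Without pyruvate replicates 3 and 4, 3 were lower and 1 higher with AKB, where 4.31% of all genes were lower and 4.86% higher. With pyruvate 0 were called in that fit. The haem-regulated kinase gene EIF2AK1 stood at 396 ± 9.13 CPM with AKB, 343 ± 44.8 CPM with pyruvate and 389 ± 10.6 CPM in untreated libraries. PPP1R15B, the constitutive eIF2 phosphatase subunit, had log2 fold changes of −0.14 and −0.27 (adjusted p = 0.454 and 0.07), and the eIF2-beta gene EIF2S2 −0.27 and −0.31 (adjusted p = 0.221 and 0.0836). EIF2S2 passed the test with the GC-content offset with AKB (−0.25, adjusted p = 0.0328) and with pyruvate (−0.24, adjusted p = 0.0366), and without pyruvate replicates 3 and 4 with AKB (−0.27, adjusted p = 0.00728) but not with pyruvate (−0.14, adjusted p = 0.321). The pyruvate values of PPP1R15B (−0.16) and EIF2AK1 (−0.03) without those libraries were not called.

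Among 6 relatives and partners of TRIB3, edgeR called 0 in either comparison, with medians of −0.02 and −0.07. An unadjusted p below 0.05 was reached by 0 with AKB and by 3 with pyruvate, of which 2 were above 0. DESeq2 called 0 with AKB and 1 higher with pyruvate, where it called 9.38% of all genes higher. TRIB2 stood at 69.3 ± 3.57 CPM with AKB, 62.4 ± 2.82 CPM with pyruvate and 70.1 ± 4.05 CPM in untreated libraries (adjusted p = 0.95 with AKB and 0.124 with pyruvate). The kinase genes AKT1, whose product TRIB3 is known to bind, and AKT2 had log2 fold changes of 0.13 and 0.05 with AKB and 0.34 and 0.33 with pyruvate, none called. Their pyruvate values without pyruvate replicates 3 and 4 were 0.09 for AKT1 and 0.03 for AKT2. With the GC-content offset 1 of the 6 was called, TRIB2, which was lower with pyruvate (−0.21, adjusted p = 0.0453), where 4.09% of all genes were lower. Without pyruvate replicates 3 and 4 TRIB2 was not called with pyruvate (−0.13, adjusted p = 0.396).

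The genes whose levels over the 12 libraries were most like those of ATF4 were found by the root mean square difference of log2 CPM, each centred on its untreated mean, over 9978 genes with at least 5 CPM on average. They were SLC3A2 (0.0747), MARS1 (0.0782), the tryptophanyl-tRNA synthetase gene WARS1 (0.0907), the mitochondrial folate enzyme gene MTHFD1L (0.102) and TRIB3 (0.105). SLC3A2 averaged 161 ± 5.34 CPM with AKB and 173 ± 17.3 CPM with pyruvate, against 237 ± 4.49 CPM in untreated libraries. For ATF3 the nearest genes were SOX5 (0.203), TXNIP (0.223), CTH (0.228), the serine synthesis gene PHGDH (0.236) and the activin subunit gene INHBE (0.236), all farther from it than the 5 listed were from ATF4. These distances include counting noise, and ATF3 had 131 to 292 counts per library against 3737 to 6464 for ATF4. They therefore do not show that fewer genes move like ATF3.

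The authors' deposited tables of their own comparisons give untreated over AKB and untreated over pyruvate, so a positive value there means lower with the treatment. In the authors' deposited table for AKB, ATF4 had a log2 value of 0.52 (adjusted p = 5.96e-15), ATF3 0.82 (3.67e-07), CEBPG 0.49 (1.45e-15), TRIB3 0.48 (4.99e-17) and DDIT3 0.34 (0.0414). In the authors' deposited table for pyruvate, ATF4 had 0.44 (adjusted p = 1.03e-10), ATF3 0.79 (6.23e-07), CEBPG 0.43 (5.29e-12), TRIB3 0.62 (3.75e-30) and DDIT3 0.14 (0.395). For CEBPB the authors' deposited table for pyruvate gives 0.12 (adjusted p = 0.678), the opposite direction to the estimate of 0.25 for pyruvate over untreated from the counts, and neither was called. The authors' deposited tables give ATF5 at 0.53 for untreated over AKB (adjusted p = 0.0924) and −0.05 for untreated over pyruvate (0.887), and CEBPB at 0.29 for untreated over AKB (0.373). The authors' deposited table of AKB over pyruvate gives ATF5 at −0.59 (adjusted p = 0.0323) and TRIB3 at 0.14 (0.0559). JDP2 was the gene whose values differed most between the sources, at 0.05 for untreated over AKB and 0.73 for untreated over pyruvate in the authors' deposited tables, against estimates of 0.44 for AKB over untreated and −0.20 for pyruvate over untreated from the counts. The cause was not tested.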

How the data were processed

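Poly(A) RNA of 12 K562 libraries was compared in 3 groups of 4, taken from the sample labels. Salmon 1.2.1, DESeq2 1.26.0 and R 3.6.3 are the tools listed in the submitters' processing notes, while genome build, annotation and settings were not given in the sources used here. Estimated counts per gene make up the deposited count table. Its values were whole numbers, and rounding changed 0 of them. Per the file headers, the authors' comparison tables hold a mean normalised signal, log2 fold changes and their standard errors, a test statistic (a score, not used) and p-values.

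Symbols matched 16933 of 17786 identifiers (95.2%), and GC content and coordinates came from GENCODE 29 on GRCh38 for 16904. With R 4.3.3 and edgeR 4.0.16, genes were kept by filterByExpr (minimum count 10), scaled by TMM and tested by the quasi-likelihood test with 1 term per group, adjusted by Benjamini-Hochberg over 13598 genes. Standard errors are the log2 fold change over the square root of F. The GC-content offset removed a lowess curve (span 0.3) of log2 CPM deviations (prior count 2) on GC. Alternatives included DESeq2 1.42.0, limma 3.58.1 voom, other scalings and filters, a replicate block and each library left out.

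The members, lists and alternatives were chosen with earlier results of these data known. All 8 members are named, with up to 3 genes of each list by smallest adjusted p and the 5 genes most like ATF4 or ATF3. CTH, called between the compounds, was named after its values were seen. The count test was tested on simulated data. Protein sequences were not used here.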

Additional observations from a re-analysis of the deposited data

Results flagged for a closer look

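DDIT3 in the untreated libraries had 1 sample apart from the others by Dixon's ratio, though the group's coefficient of variation was only 3.33%. The ratio was high because the other 3 lay very close together. Replicate 1 stood at 25.1 CPM, against 23.5 to 23.6 CPM in the other 3, a gap of 0.924 of the group's range, above Dixon's 95% critical value for 4 samples. With 24 groups tested (8 genes in 3 groups), chance flags about 1 in 20.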

How the results depend on the processing

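Over 23 settings, 12 of which left out 1 library, the 8 genes had 552 alternative fold changes, of which 515 kept their direction and side of the threshold, 16 gained a call, 5 lost one and 16 changed sign. No clear pairing by replicate number was seen: of 12 same-numbered pairs 3 had a correlation above 0.1, and 1 library correlated best with its own number. These correlations also hold the GC trends of single libraries, so they cannot show that the samples were unpaired. The replicate block gave 158 genes with AKB and 565 with pyruvate against untreated, and it changed no call of the 8 genes. With offset and block together 6 of the 8 were again lower with AKB than in untreated cells, with CEBPB (log2 −0.41, adjusted p = 0.0371) in place of DDIT3 (−0.35, adjusted p = 0.071).

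Genes called with AKB against untreated numbered 268, and 531 with DESeq2, 1148 with the GC-content offset, 930 with offset and replicate block, 1339 with the 8 libraries alone, 1278 without pyruvate replicates 3 and 4, and 92 to 357 with 1 library left out. With pyruvate against untreated they were 265, and 152 without a filter, 1824, 1290, 1435, 16, 99 and 32 to 3611. For AKB against pyruvate they were 426, and 214 without a filter, 1527 with DESeq2, 1981 with the offset, 1974 with offset and block, 6 with the 8 libraries alone, and 68 to 2111 with 1 left out. Of the 8 genes, 2 were lower with pyruvate in the 8 libraries alone and 3 to 4 with 1 library left out. Between the compounds 1 was lower with DESeq2, with the offset and with offset and block (0 to 1 with 1 library left out), and 2, 1 and 1 were higher with the offset, with offset and block and without pyruvate replicates 3 and 4. ATF5 was also lower with AKB than with pyruvate without pyruvate replicate 2 (log2 −0.77, adjusted p = 0.0246).

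Estimates that changed sign, given with the offset, with offset and block and without pyruvate replicates 3 and 4, were those of ATF5 (−0.14, −0.14, −0.27) and CEBPB (−0.18, −0.20, −0.45) with pyruvate against untreated, and, for AKB against pyruvate, of ATF4 (0.00, 0.01, 0.01) and CEBPG (−0.05, −0.05, −0.05, and −0.02 to 0.06 with 1 library left out). CEBPB for AKB against pyruvate was 0.18 without pyruvate replicates 3 and 4. The cause was not tested. Depth limits JDP2, at 21 to 45 counts per library.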
